A study of Mus musculus with 7 samples.

Results

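Nuclear genes of the oxidative phosphorylation system were described in RNA of EML cells sequenced as 7 libraries; EML is a multipotent blood progenitor line of the mouse with erythroid, myeloid and lymphoid potential. Members were chosen by symbol: every gene whose name begins with Nduf, Uqcr, Cox4 to Cox8 or Atp5, the genes Sdha, Sdhb, Sdhc and Sdhd, and Cyc1 and Cycs. The rule found 91 of 20142 genes listed once, 38 named for complex I, 4 for complex II, 9 for complex III, 17 for complex IV and 15 for complex V, with cytochrome c (Cycs) as 1 carrier. The other 7 share a name pattern but are no subunits (Ndufaf1, Ndufaf2, Ndufaf3, Ndufaf4, Cox7a2l, Atp5s and Atp5sl). Of the 91, 85 reached 1 FPKM in at least 3 libraries and were tested, among 9259 genes tested in all. FPKM count sequenced fragments relative to transcript length and to the size of the library, so levels of different genes are compared per length.

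Oxidative phosphorylation makes ATP in the inner mitochondrial membrane. Complexes I and II pass electrons from NADH and succinate to coenzyme Q, complex III hands them to cytochrome c, complex IV passes them to oxygen, and complex V (ATP synthase) uses the proton gradient built by complexes I, III and IV. Most subunits are encoded in the nucleus and imported, while a few core subunits are encoded in mitochondrial DNA. The 13 mitochondrially encoded subunits were searched by symbol (such as mt-Cytb), and 0 were found among the genes listed once, so they are not described. Haematopoietic stem cells are known to lean on glycolysis, and several lineages raise mitochondrial respiration as they differentiate.

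Cells were sorted into a CD34-negative group of 4 libraries and a CD34-positive group of 3. CD34 is a surface marker of early haematopoietic cells. All libraries are labelled C57BL/6, were sorted from Annexin V-negative live cells without a stated treatment, and were made from total RNA by a standard Illumina protocol. The source label names the EML line, but bone marrow stands as the tissue and a postnatal day as the age, and CD43 is written for CD34 in the genotype of the CD34-negative libraries. The descriptions number the CD34-negative libraries 2, 3, 4 and 4a and the CD34-positive libraries 2, 3 and 4, without saying what the number marks. Separate cultures are not stated in the labels, and p-values therefore refer to variation among these libraries, part of which may be technical. Values below are given in that order of numbers, CD34-negative first.

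Sequencing depth is unknown, and 8606 to 9117 genes reached 1 FPKM per library. The libraries numbered 4 stood apart from the others: the share of summed FPKM in 78 cytosolic ribosomal protein genes was 25.3% to 33.6% in numbers 2 and 3 but 2.15% to 3.99% in the 3 libraries numbered 4, and a single gene, Mir703, held 34.6% in CD34-negative 4. Cd34 itself was at 19.3, 91.8, 2.67 and 6.02 FPKM in CD34-negative and 256, 147 and 153 FPKM in CD34-positive libraries, so the groups did not overlap. On the log2(FPKM + 1) scale its difference was 3.60 (SE 0.98), and the limma adjusted p was 0.647, or 0.0931 with the number as a block. The 5 multipotent progenitor markers checked were all expressed highly enough to be tested. Of the 5 hepatocyte markers checked, Alb and Ttr were listed at 0 in all 7 libraries and Afp and Apoa1 at no more than 0.169 FPKM, while Trf was at 35.1 to 197 FPKM. Of the 7 stromal and endothelial markers, Col1a2, Col3a1 and Kdr were listed at 0, while Pdgfrb was at 16.6 to 62.9 FPKM and Pecam1 at 36.4 to 96.6 FPKM.

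The members held 5.26%, 3.72%, 1.58% and 2.53% of the summed FPKM in the CD34-negative libraries and 5.30%, 3.50% and 2.60% in the CD34-positive ones. Without Mir703, a sum chosen after seeing the data, the share in CD34-negative 4 was 2.42% and that in 4a 2.92%. Under both sums the share was highest in the libraries numbered 2 and lowest in those numbered 4, in both groups. The median member stood at 276, 208, 57.2 and 63.3 FPKM in CD34-negative and at 267, 178 and 52.6 FPKM in CD34-positive libraries. Libraries of equal number therefore lay close together, whatever their CD34 label. Ranking the 85 members by level gave Spearman correlations of 0.968 to 0.987 over the 5 pairs of libraries with the same number, 0.878 to 0.908 over the 4 pairs of a number 2 with a number 3 library, and 0.515 to 0.669 over the 12 pairs that set a number 4 library against another number. These correlations are descriptions over genes that share each library.

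**Figure D1:**
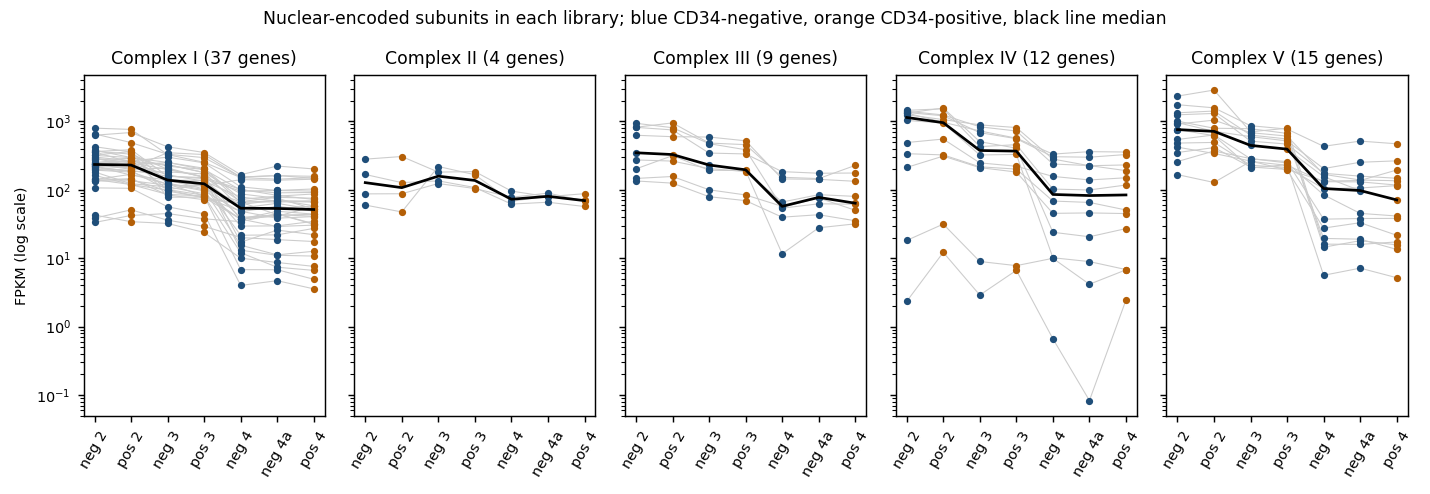
FPKM (log axis) of the tested subunits of each complex in the 7 libraries, ordered by number; each point is 1 gene, grey lines join a gene and the black line is the median. Medians are lower in number 4 than in number 2 libraries in each complex under FPKM as deposited; those of complex II lie between 69.4 and 158 FPKM. After quantile normalization 25 of the 85 members have a difference above 0 toward number 4.

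Complex I, the NADH dehydrogenase, had 37 tested members, with 7 core subunits that carry the flavin and iron-sulphur clusters and accessory subunits around them. Its highest mean over the 7 libraries was that of Ndufa4, at 627, 425, 166 and 222 FPKM in CD34-negative and 687, 350 and 202 FPKM in CD34-positive libraries. Ndufa4 was named for complex I and is now known as a complex IV protein. Ndufa3 and Ndufb9, accessory subunits, had the next highest means, and in both number 2 libraries Ndufa3 was the highest (796 and 762 FPKM). Ndufa11, also accessory, was the lowest in CD34-negative 3 and CD34-positive 2 and 3 (32.2, 34.2 and 23.8 FPKM), whereas Ndufab1, the mitochondrial acyl carrier protein, was the lowest in all 3 libraries numbered 4 (3.56 to 4.69 FPKM). The isoform Ndufa4l2, known from hypoxic cells, was listed at 0 to 0.114 FPKM and was not tested.

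Complex II, succinate dehydrogenase, which also serves the citric acid cycle, varied less across libraries than the others, its summed level running from 283 to 658 FPKM while that of complex V ran from 1668 to 13421 FPKM. Sdha, its flavoprotein, was at 87.1, 123, 77.6 and 89.3 FPKM in CD34-negative and 87.5, 104 and 68.9 FPKM in CD34-positive libraries. Sdhd, a membrane anchor, was at 59.7, 219, 67.7 and 81.1 FPKM in CD34-negative and 47.4, 166 and 69.9 FPKM in CD34-positive libraries. Sdhd was thus highest in both number 3 libraries and lowest in both number 2 libraries, against the order of most members: 77 of 85 had their highest value in a number 2 library. The 8 exceptions were Sdhd, Sdha, Atp5sl, Atp5d, Ndufa6, Atp5s, Ndufs1 and Ndufaf4. The mean of number 2 over that of number 3 was 1.60 at the median member and 0.907 at the median of all tested genes, from 0.279 for Sdhd to 4.39 for Ndufb2, an accessory subunit of complex I.

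Complex III, the cytochrome bc1 complex, had its highest means over the 7 libraries in the small subunits Uqcrq, Uqcr11 and Uqcrh, although Uqcr10, another small subunit, was the highest in both number 3 libraries (590 and 520 FPKM). Uqcrq was at 820, 482, 152 and 146 FPKM in CD34-negative and 949, 457 and 227 FPKM in CD34-positive libraries. Cyc1, the cytochrome c1 that gives electrons to cytochrome c, was at 347, 230, 53.8 and 62.4 FPKM in CD34-negative and 327, 196 and 61.6 FPKM in CD34-positive libraries. Cycs was the lower of these cytochromes, with 66.5, 34.1, 10.8 and 15.8 FPKM in CD34-negative and 66.0, 28.0 and 16.0 FPKM in CD34-positive libraries. For both genes the 3 libraries numbered 4 lay below all others.

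Complex IV, cytochrome c oxidase, had 12 tested members, and several of its subunits come as a ubiquitous and a tissue-restricted isoform. The ubiquitous Cox6a1, Cox4i1, Cox6b1, Cox7a2, Cox7b and Cox8a were all expressed, Cox4i1 for example at 1247, 888, 281 and 224 FPKM in CD34-negative and 1062, 812 and 231 FPKM in CD34-positive libraries. Of the restricted partners, Cox7b2, Cox8b and Cox8c (testis or muscle forms) were listed at 0 in every library. Cox4i2 was above 0 in CD34-positive 2 alone (0.305 FPKM) and Cox6b2 in the number 3 libraries alone (0.251 and 0.384 FPKM). Cox7a1, a heart and muscle form, was measured at 18.2, 8.95, 9.96 and 4.16 FPKM in CD34-negative and 31.5, 7.78 and 6.75 FPKM in CD34-positive libraries, with overlapping groups. Cox6a2, the other heart and muscle form, is described with the CD34 comparison.

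Complex V, the ATP synthase, held the member with the highest mean over the 7 libraries, Atp5k, which was the highest of the complex in both number 2 libraries and in CD34-positive 3, while Atp5b was the highest in the other 4. Atp5b, the catalytic beta subunit, was at 1752, 863, 432 and 515 FPKM in CD34-negative and 1577, 771 and 470 FPKM in CD34-positive libraries. The c-ring is encoded by Atp5g1, Atp5g2 and Atp5g3, of which Atp5g3 averaged 812 ± 201 FPKM (SD, n = 4) and Atp5g2 averaged 812 ± 142 FPKM (SD, n = 4) in numbers 2 and 3, but 148 ± 18 FPKM and 16.0 ± 1.81 FPKM (SD, n = 3) in number 4. In number 3 the highest of the 15 members was 4.14 (CD34-negative) and 4.07 (CD34-positive) times the lowest. In number 4 it was 76.8, 72.0 and 90.7 times the lowest, Atp5b being the highest and Atp5h, a peripheral stalk subunit, the lowest in all 3.

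The first comparison asked how CD34-positive and CD34-negative cells differ. In limma at an adjusted p of 0.05, 0 members were called higher and 0 lower, as were 0% of all tested genes in each direction; the smallest adjusted p among members was 0.686. At an unadjusted p under 0.05, 1 member was higher (Cox6a2) and 0 were lower, against 3.38% and 2.27% of all tested genes. The median difference over members was 0.17 on the log2(FPKM + 1) scale, against 0.09 over all tested genes. Above 0 lay 71 of 85 members and 5747 of all 9259 tested genes. With the number as a block, 0 members passed again, and the median was -0.10, against 0.04 over all genes. Below 0 in this fit lay 61 of 85 members and 4173 of all 9259 tested genes. At an unadjusted p under 0.05, 1 member was higher and 5 were lower with the block, against 12.8% and 9.14% of all genes. Without the block, the median was 0.59, 0.35, -0.11 and -0.10 when CD34-negative 2, 3, 4 or 4a was left out, and -0.30, 0.11 and 0.69 when CD34-positive 2, 3 or 4 was left out. The sign also depends on the block, as 2 of the 4 CD34-negative but 1 of the 3 CD34-positive libraries carry the number 4. In bulk libraries fewer cells of a type and less RNA per cell cannot be told apart.

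Within equal numbers the differences were small and mostly negative in number 3. The median CD34-positive minus CD34-negative difference over members was -0.06 in number 2 (37 above 0, 48 below), -0.19 in number 3 (9 above, 76 below), -0.06 in number 4 (38 above, 47 below) and -0.04 for CD34-negative 4a (36 above, 49 below). Over all tested genes the medians were 0.13, 0.00466, -0.00290 and -0.02. The last pair of comparisons shares its CD34-positive library. By complex, number 3 gave 35 of 37 complex I members below 0 (median -0.28), 3 of 4 in complex II (-0.28), 9 of 9 in complex III (-0.18), 9 of 12 in complex IV (-0.17) and 13 of 15 in complex V (-0.16). In number 2 the corresponding counts were 23, 2, 6, 6 and 7. Number 3 is also the number with the smallest Cd34 contrast, 147 against 91.8 FPKM; whether that has a part in these values was not tested.

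**Figure D2:**
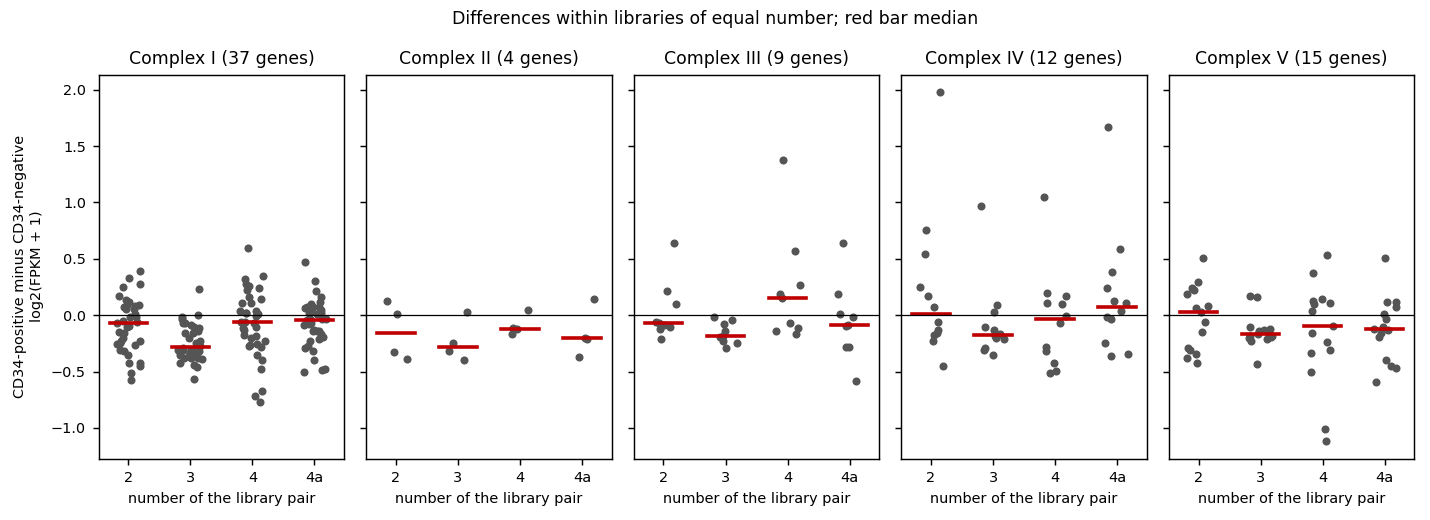
CD34-positive minus CD34-negative difference in log2(FPKM + 1) of each tested subunit within libraries of equal number (4 and 4a share the CD34-positive library); points are genes, red bars medians. Most points lie within 0.6 of 0, number 3 has most of its points below 0, and the highest complex IV point in each number is Cox6a2.

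In all 4 same-number differences, 22 members were lower in CD34-positive cells (25.9% of 85, against 18.9% of all tested genes) and 4 were higher (4.71%, against 21.4%). Of the 22, 12 belonged to complex I, 1 to complex II, 3 to complex III, 2 to complex IV and 3 to complex V, and the remaining member was the assembly factor Ndufaf1. The 4 higher ones were Cox6a2, Cox6c, Atp5k and Ndufb6, and apart from Cox6a2 the largest difference among them was 0.295 (Atp5k in number 2). CD34-positive and CD34-negative libraries did not separate for any member in either direction (2.67% and 3.01% of all tested genes).

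The 5 members with an unadjusted p under 0.05 and a negative difference in the fit with the block were chosen after their values were seen. Ndufv1, which holds the flavin that accepts electrons from NADH, was at 182, 111, 36.9 and 44.2 FPKM in CD34-negative and 122, 87.4 and 31.3 FPKM in CD34-positive libraries. It was lower in CD34-positive cells at every number, by a blocked difference of -0.42 (SE 0.14), which did not pass (limma adjusted p = 0.152). Atp5g1, a c-ring gene, was at 420, 263, 27.5 and 33.0 FPKM in CD34-negative and 339, 195 and 21.6 FPKM in CD34-positive libraries, with -0.41 (SE 0.13, limma adjusted p = 0.153). Ndufs7, a core iron-sulphur subunit, and the accessory subunits Ndufa7 and Ndufa11 had blocked differences of -0.34, -0.35 and -0.33. Without the block the differences of these 5 members lay between -0.14 and 0.17.

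Cox6a2 was the member with the largest difference between the groups. It encodes the heart and skeletal muscle isoform of subunit VIa and lies on chromosome 7, where it overlaps Itgad on the other strand (128154376 to 128223816 in GRCm38). It was at 2.34, 2.89, 0.663 and 0.083 FPKM in CD34-negative and at 12.2, 6.64 and 2.44 FPKM in CD34-positive libraries. At every number the CD34-positive library was higher, but the groups overlapped, since CD34-positive 4 lay below CD34-negative 3. The same-number differences were 1.98, 0.97, 1.05 and 1.67. Without the block the difference was 1.68 (SE 0.58), which did not pass in limma (adjusted p = 0.686), and with it 1.43 (SE 0.24, adjusted p = 0.0931). The blocked value passed when CD34-negative 3, CD34-negative 4 or CD34-positive 3 was left out (limma adjusted p = 0.0417, 0.0436 and 0.0406). It did not pass when any of the other 4 was left out (0.136 to 0.531). Leaving out either number 3 library takes its partner out of the blocked contrast as well. The fits without CD34-negative 3 and without CD34-positive 3 are therefore the same contrast and not separate results. Itgad was at 0.0607 to 0.351 FPKM in all 7 libraries.

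The ubiquitous partner Cox6a1 differed in size and sign. It was at 1406, 832, 238 and 226 FPKM in CD34-negative and 1241, 723 and 190 FPKM in CD34-positive libraries. Its same-number differences were -0.18, -0.20, -0.32 and -0.24, and its difference did not pass with the block (-0.23, SE 0.13, limma adjusted p = 0.373) or without it (0.15, SE 0.98). Cox6a1 was more abundant than Cox6a2 in every library. An interaction of CD34 with number 4 was also fitted, and on the same scale it was -0.12 for Cox6a2 and -0.09 for Cox6a1. This fit cannot decide whether a member's CD34 difference depended on the number. It took all numbers other than 4 together, and number 4 holds a single CD34-positive library.

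**Figure D3:**
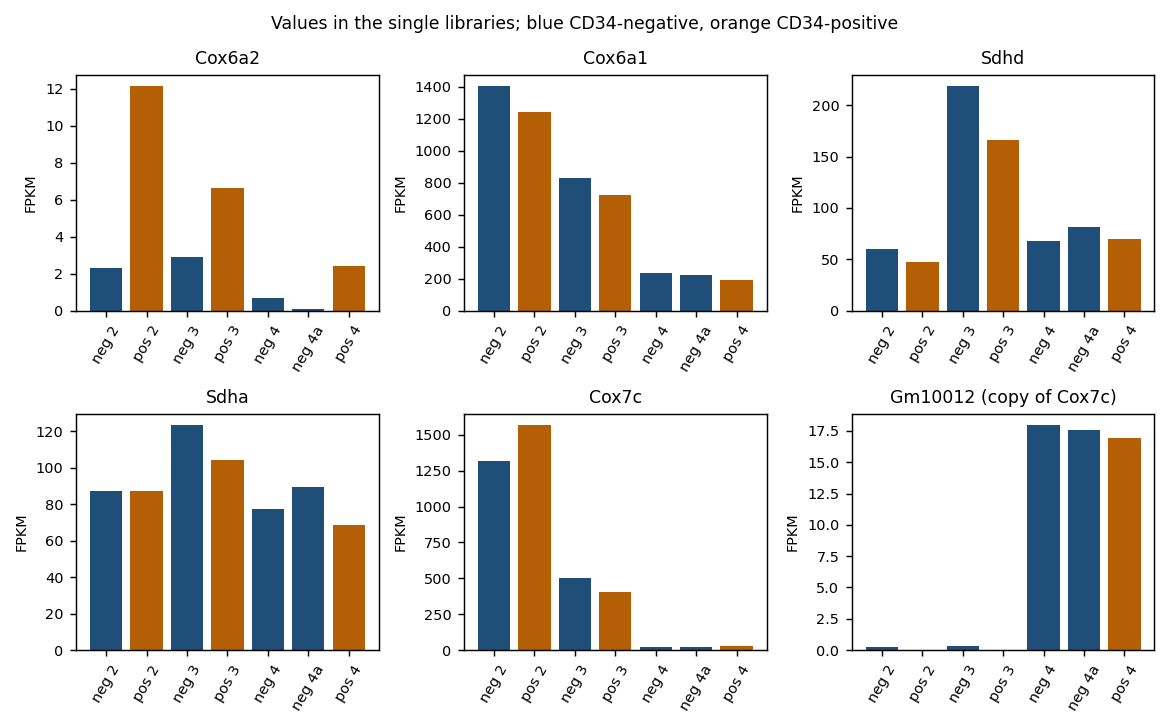
FPKM per library (bars, linear axes that start at 0 and differ in range between panels) for Cox6a2, Cox6a1, Sdhd, Sdha, Cox7c and the pseudogene Gm10012; blue bars are CD34-negative and orange bars CD34-positive libraries, ordered by number. Cox6a2 is higher in CD34-positive cells at each number, Sdhd is highest in number 3, and Gm10012 is at 16.9 to 17.96 FPKM only where Cox7c is at 20.6 to 27.1 FPKM.

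The largest differences among the members followed the library number. This split was chosen with the libraries numbered 4, and the member values in them, already known to stand apart. Its p-values are therefore descriptive and no independent test. Set against numbers 2 and 3 with the CD34 group as a covariate, 72 of 85 members were lower in the 3 libraries numbered 4 and 0 were higher at an adjusted p of 0.05 in limma (30.7% and 5.93% of all tested genes; at an unadjusted p under 0.05, 0 members and 10.4% of all genes were higher). The median over members was -1.63 on the log2(FPKM + 1) scale, against -0.29 over all tested genes, and 73 members had every number 4 library below all others (35.4% of all genes). The count fell to 53 after median-ratio scaling, to 41 after rescaling without ribosomal protein genes and to 36 after quantile normalization, where 25 members lay above 0 and Cox8a, Atp5b and Ndufaf2 passed as higher. It was 46 without CD34-positive 4. What the number marks, the low ribosomal protein share of these libraries and the member levels cannot be told apart.

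All 9 complex III members and Cycs passed as lower, with 34 of 37 in complex I, 11 of 12 in complex IV and 13 of 15 in complex V, under FPKM as deposited. Cycs did not pass without CD34-negative 4 (limma adjusted p = 0.0530) or CD34-positive 4 (0.0693). In complex II 2 of 4 passed, and among the non-subunits 2 of 7. The medians were -1.69 for complex I, -0.83 for complex II, -1.85 for complex III, -2.08 for complex IV, -2.44 for complex V and -0.26 for the non-subunits. The 13 that did not pass were Ndufs1, Ndufv2, Ndufv3, Sdha, Sdhd, Cox7a1, Atp5d, Atp5j, Atp5s, Atp5sl, Ndufaf1, Ndufaf2 and Ndufaf4. Ndufs1, the largest iron-sulphur subunit of complex I, was at 33.3, 44.9, 34.2 and 44.6 FPKM in CD34-negative and 42.1, 37.6 and 31.8 FPKM in CD34-positive libraries, and number 4 overlapped the rest (-0.12, SE 0.20, limma adjusted p = 0.675). Of the 4 complex I assembly factors, Ndufaf3 passed as lower (-1.63, SE 0.27, limma adjusted p = 0.00421).

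The 5 members with the largest falls held 4 subunits of ATP synthase and 1 of complex IV. Atp5k, a small membrane subunit of ATP synthase, was at 2338, 704, 16.1 and 15.9 FPKM in CD34-negative and 2867, 793 and 17.3 FPKM in CD34-positive libraries, so its number 4 values did not approach the others (-6.29, SE 0.54, limma adjusted p = 0.000284). Cox5b, a zinc-binding subunit of complex IV, was at 1032, 323, 10.2 and 8.91 FPKM in CD34-negative and 944, 329 and 6.81 FPKM in CD34-positive libraries (-5.93, SE 0.49). Atp5h was at 758, 208, 5.62 and 7.15 FPKM in CD34-negative and 618, 233 and 5.18 FPKM in CD34-positive libraries (-5.83, SE 0.50).

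The rest of these 5 were Atp5l, another small membrane subunit (-5.68, SE 0.40), and Atp5g2 (-5.60, SE 0.20), and all 5 passed in limma with every library left out in turn and under each scaling tried. By contrast Atp5b fell by 1.32 (SE 0.37, limma adjusted p = 0.0296), but was higher by 1.08 after quantile normalization and did not pass when CD34-negative 2, 4 or 4a or CD34-positive 2 or 4 was left out (adjusted p = 0.0640 to 0.137). Cox4i1 fell by 2.04 (SE 0.25, limma adjusted p = 0.00139) and lay 0.19 above 0 after quantile normalization. As a ratio of mean FPKM in numbers 2 and 3 to that in number 4, the median was 3.36 over members and 1.28 over all tested genes. The ratio exceeded 10 in 14 members, a share to be set against 1.97% of all tested genes: Atp5k (102), Cox5b (76.1), Atp5h (75.9), Atp5l (56.9), Atp5g2 (50.6), Cox7c (39.8), Ndufb4 (19.2), Ndufab1 (19.1), Ndufs3 (17.3), Ndufs5 (16.7), Ndufc1 (14.6), Atp5o (11.4), Atp5g1 (11.1) and Uqcr11 (10.8).

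Many members have processed pseudogenes, copies of the messenger RNA inserted elsewhere in the genome. Coding sequences of the members were cut into windows of 32 bases and searched in 13375 pseudogenes of GENCODE vM21 (GRCm38), as a description of how much of each member a short read could share with a copy. The 4 ATP synthase members with the largest falls are shown with 1 copy each. The 90 bases were placed on a stretch shared with the copy, so their near identity was built in. Over the whole coding sequence, 35.7% of the windows of Atp5k, 78.7% of Atp5h and 100% of Atp5l and Atp5g2 were shared. Capitals mark the positions where gene and copy differ, 2 in the Atp5k pair and 0 in the others. Genes and copies all lie on the minus strand of GRCm38.
Atp5k, coding bases 64 to 153, chromosome 5: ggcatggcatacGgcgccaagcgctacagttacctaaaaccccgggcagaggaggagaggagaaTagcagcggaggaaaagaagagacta
Atp5k-ps2, chromosome 2: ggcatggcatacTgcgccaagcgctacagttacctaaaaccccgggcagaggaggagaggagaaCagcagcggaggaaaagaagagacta
Atp5h, coding bases 199 to 288, chromosome 11: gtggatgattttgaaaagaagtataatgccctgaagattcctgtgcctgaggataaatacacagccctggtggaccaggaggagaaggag
Gm10250, chromosome 15: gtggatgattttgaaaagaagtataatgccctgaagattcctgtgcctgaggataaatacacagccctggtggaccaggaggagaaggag
Atp5l, coding bases 112 to 201, chromosome 9: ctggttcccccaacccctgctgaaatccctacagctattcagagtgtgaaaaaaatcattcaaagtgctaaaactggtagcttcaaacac
Gm10221, chromosome 5: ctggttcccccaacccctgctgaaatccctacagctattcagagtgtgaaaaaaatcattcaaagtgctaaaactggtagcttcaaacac
Atp5g2, coding bases 175 to 264, chromosome 15: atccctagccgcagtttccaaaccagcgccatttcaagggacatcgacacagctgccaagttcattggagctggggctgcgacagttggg
Gm10175, chromosome 7: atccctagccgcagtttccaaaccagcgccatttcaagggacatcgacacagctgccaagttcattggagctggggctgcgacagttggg

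The share of windows found in a pseudogene moved with the ratio between library numbers. The 38 tested members with no shared window had a median ratio of 2.70, and 1 of them, Cox5b, exceeded 10. In the 31 members with up to 50% shared the median was 3.19 and 3 exceeded 10. In the 16 members with more than 50% shared the median was 13.9 and 10 exceeded 10. Over all tested genes with a coding sequence the medians were 1.24 (7066 genes), 1.29 (1513 genes) and 3.64 (482 genes), and 19, 15 and 138 genes exceeded 10. Without members and ribosomal protein genes the medians were 1.24 (7020 genes), 1.26 (1476 genes) and 2.70 (398 genes), and 18, 12 and 69 genes exceeded 10. Over the 85 members, shared windows and the log2 ratio had a Pearson correlation of 0.667 and a Spearman correlation of 0.582, while coding length gave -0.380 and -0.432. Over all tested genes shared windows gave 0.424 and 0.169, coding length -0.378 and -0.400, and transcript length -0.452 and -0.495; all points come from the same 7 libraries.

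Exceptions ran both ways. Cycs, of which every window occurs in at least 1 of 14 pseudogenes, had a ratio of 3.42, and Cox5b, with 0 shared windows, one of 76.1. Atp5k, with the highest ratio of the members (102), shared 35.7% of its windows. For Cox7c, a small complex IV subunit, the pseudogene Gm10012 on chromosome 17 (25901856 to 25902227, plus strand, GRCm38) holds 99 of its 161 windows and has values of its own. Cox7c was at 1318, 504, 23.9 and 20.6 FPKM in CD34-negative and 1568, 406 and 27.1 FPKM in CD34-positive libraries. Gm10012 was at 0.280, 0.362, 17.96 and 17.6 FPKM in CD34-negative and at 0, 0 and 16.9 FPKM in CD34-positive libraries, so it was high only where Cox7c was low. Among pseudogenes holding at least 10 windows of a member, Gm10012 alone had values of its own, so no other case can be set beside it. How fragments shared between genes and copies were assigned is not given in the sources used here, and its part in these ratios was not tested. Members with such copies are therefore uncertain in level. By whole gene span, 26 of the 91 members overlapped another protein-coding gene, 24 of them a gene on the other strand. Cox4i1, Ndufa13, Ndufb2, Ndufb8 and Ndufb9 overlapped a gene on the same strand. The levels of these members may be uncertain too, but whether exons overlap was not examined.

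**Figure D4:**
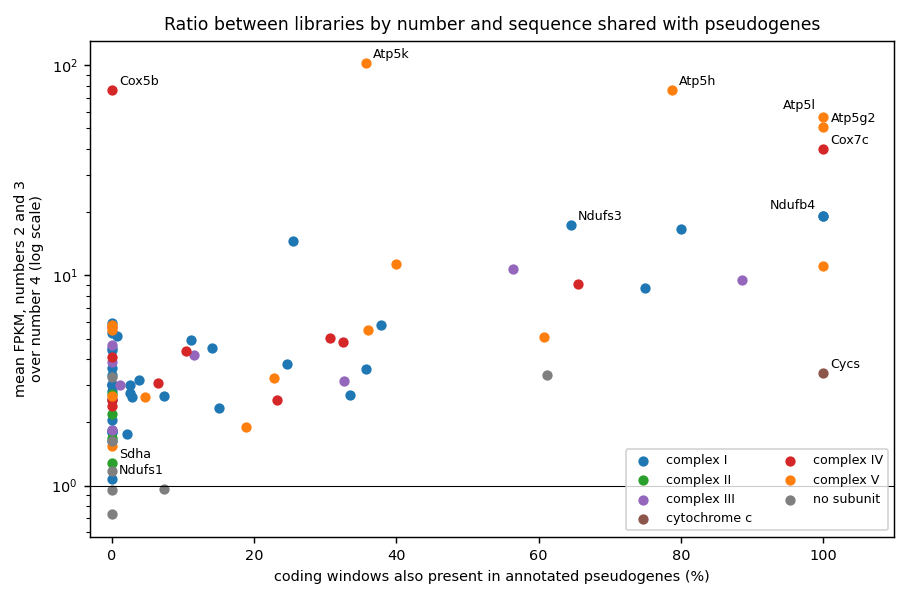
Ratio of mean FPKM in the 4 libraries numbered 2 and 3 to that in the 3 numbered 4 (log axis, FPKM as deposited; some members change direction after quantile normalization) against the percentage of 32-base coding windows also present in pseudogenes, for 85 tested members coloured by complex. Of the 16 members above 50%, 10 lie above a ratio of 10; Cox5b at 0% and Cycs at 100% are exceptions.

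Promoter sequence was taken from RefSeq (GRCm38.p6), 250 bases before to 50 after the start, for the 72 of all 91 members with an entry. These are not the same set as the 72 members that were lower in number 4. Whether promoter sites have a part in the differences by number was not tested. Both strands were searched for the palindromic NRF1 site, whose letters are the capitals in the promoters printed here, and for CCGGAAGT (an ETS or GABP site) and AAGATGGCG (a YY1 site). The first was found in 6 members (8.33%), against 1.07% of 27025 genes with a promoter and 2.72% of the 7130 tested ones. The YY1 site was found in 7 members (9.72%), against 1.64% and 4.24%, and the ETS site in 5 (6.94%), against 4.31% and 10.5%. The 6 with the NRF1 site were Ndufa11, Uqcrc1, Cox6a1, Atp5g2, Atp5k and Ndufaf4, whose ratios between library numbers ran from 0.964 to 102. Cox6a1 and Uqcrc1, a core subunit of complex III, are shown with the site in capitals.
Cox6a1, chr5:115348909-115349208, minus strand: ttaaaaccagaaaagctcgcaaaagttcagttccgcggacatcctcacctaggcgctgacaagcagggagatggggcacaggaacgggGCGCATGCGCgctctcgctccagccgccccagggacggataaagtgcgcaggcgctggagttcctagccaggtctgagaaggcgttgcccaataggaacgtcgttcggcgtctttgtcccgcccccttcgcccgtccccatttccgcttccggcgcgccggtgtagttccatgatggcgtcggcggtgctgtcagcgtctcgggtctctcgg
Uqcrc1, chr9:108936398-108936697, plus strand: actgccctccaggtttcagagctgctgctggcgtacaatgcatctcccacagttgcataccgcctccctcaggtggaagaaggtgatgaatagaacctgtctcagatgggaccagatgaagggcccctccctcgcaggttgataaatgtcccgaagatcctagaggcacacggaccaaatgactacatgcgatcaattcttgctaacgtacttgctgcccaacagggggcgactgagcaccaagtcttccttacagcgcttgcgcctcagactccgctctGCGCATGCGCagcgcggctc

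Other mitochondrial genes were taken as fixed lists. In the CD34 comparison 0 genes of each list passed in limma, and at an unadjusted p under 0.05 there were also 0 in each of the 5 lists without the block. With the block 0 passed again, but at an unadjusted p under 0.05 there were 6 of 20 antioxidant and coenzyme Q genes lower and 0 higher, beside 9.14% of all genes lower. Among these were the peroxidase genes Prdx3 (-0.90, limma adjusted p = 0.0931) and Gpx4 (-0.75, 0.0958) and the carrier Ucp2 (-0.76, 0.0951). Of 18 citric acid cycle genes 2 were higher and 1 lower, of 14 regulators 1 was higher, of 21 carriers and import factors 1 was lower, and of 24 assembly factors 0 were either. In libraries numbered 4, 13 of 24 assembly factors outside the rule were lower and 0 higher, as were 11 of 18 citric acid cycle genes, 16 of 21 carriers and import factors, 14 of 20 antioxidant and coenzyme Q genes and 4 of 14 regulators of mitochondrial transcription, beside the 72 of 85 members and 30.7% of all genes. Phb, a prohibitin, fell by 3.90 (limma adjusted p = 0.000344). Gabpb1, a subunit of the GABP factor that is known to bind promoters of these complexes, had a mean of 29.5 FPKM in the CD34-positive group against 18.6 FPKM in the other, and did not pass with the block (0.70, limma adjusted p = 0.0955).

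Markers of lineages that EML cells can form were set beside the member values. In the CD34 comparison 0 of them passed in limma after adjustment. In libraries numbered 4, 1 of 7 tested erythroid markers was lower (Gata1, -1.20, limma adjusted p = 0.0485). Of 4 neutrophil and monocyte markers 1 was lower (Prtn3, -1.67, 0.0177), and of 6 mast cell markers 0 passed, beside 30.7% of all genes lower. All 7 tested erythroid markers lay below 0 in CD34-positive cells, against 3512 of all 9259 tested genes. Without the block 6 of them had an unadjusted limma p under 0.05, against 2.27% of all tested genes lower. The summed level of all 9 listed erythroid markers ranged from 148 to 2091 FPKM in CD34-negative and 57.7 to 650 FPKM in CD34-positive libraries. Hbb-b1, the remaining tested marker, made up most of the largest sums. It was at 1405, 30.4, 37.4 and 154 FPKM in CD34-negative and 624, 1.40 and 136 FPKM in CD34-positive libraries. The 7 listed mast cell markers gave sums of 1693 to 11146 FPKM in CD34-negative and 2165 to 3270 FPKM in CD34-positive libraries. Of the 6 tested, 4 were lower at an unadjusted limma p under 0.05 (2.27% of all tested genes). Cpa3, which made up most of the CD34-positive sums, lay above 0 (1.10, SE 1.08). The 6 listed neutrophil and monocyte markers gave sums of 126 to 1331 FPKM in CD34-negative and 1250 to 2372 FPKM in CD34-positive libraries. Of the 4 tested, 3 were higher at an unadjusted limma p under 0.05 (3.38% of all tested genes). The part of these cell types in the member differences was not tested.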

How the data were processed

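RNA of 7 libraries of EML cells was measured as FPKM per gene symbol, as deposited by the authors. The submitters' processing notes list Cuffdiff, TopHat and TopHat2 with the builds mm10 and mm9, and give no versions or roles. Annotation, strand use and the handling of reads with several matches: not given in the sources used here. Depth is unknown, so no counting interval can be given. Of 20464 table entries, 322 under 105 repeated symbols were left out. Value columns without a sample numbered 0.

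Tested were genes that reached 1 FPKM in 3 or more libraries, as log2(FPKM + 1), with limma 3.58.1 in R 4.3.3 (mean-variance trend, Benjamini-Hochberg over all 9259 tested genes, threshold 0.05, both directions), after the procedure was tested on simulated data. Differences on this scale understate the change of low genes, and SE is the moderated one. The CD34 comparison had no covariate, and the comparison by library number had the CD34 group as a covariate. Equal numbers in the descriptions were treated as pairs in a further fit, with the number as a block. Deviations from group means correlated at 0.915, 0.703, 0.823 and 0.846 within numbers 2, 3, 4 and 4a. Such correlations were not computed across numbers, so these values cannot show whether equal numbers are true pairs. CD34-negative 3, 2, 4 and 4a are replicates 1, 2, 3 and 4 of the titles, and CD34-positive 3, 2 and 4 are replicates 1, 2 and 3. Alternatives were another pseudocount, other filters, 3 rescalings, subsets of libraries and leaving out each library.

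Named members are the 3 highest of each complex, Sdha to Sdhd, Cyc1, Cycs, tissue-restricted isoforms with their partners, and the 5 largest falls past the threshold; from other lists, up to 3 genes with the smallest p. Other members were named after their values were seen. Members, lists and the split by library number were chosen with earlier results of these data known. Coding, pseudogene and gene positions are from GENCODE vM21 and promoters from RefSeq, both GRCm38; no coordinate comes from the deposited table.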

Additional observations from a re-analysis of the deposited data

Results flagged for a closer look

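Each tested member and the summed FPKM of each of the 5 complexes were checked in groups of 4 libraries. These groups were the CD34-negative libraries and the libraries of numbers 2 and 3. A library was flagged where its gap to its nearest neighbour took up most of the group's range (above Dixon's limit for 4 values). Of 180 groups, 3 had a flagged library (1.67%), each for a member. For 4 independent values chance gives about 1 in 20, but libraries of equal number vary together here, so that rate does not apply as it stands. Ndufv3, an accessory subunit of complex I, stood at 427 FPKM in CD34-negative 2, with the other CD34-negative libraries between 133 and 140 FPKM (gap 0.953 of the range). Uqcrb, a small complex III subunit, stood at 315 FPKM in CD34-positive 2, with the other libraries of numbers 2 and 3 between 191 and 202 FPKM (0.889). Ndufaf4, a complex I assembly factor, stood at 5.37 FPKM in CD34-negative 2, with the others of numbers 2 and 3 between 6.27 and 6.45 FPKM (0.843).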

How the results depend on the processing

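In the CD34 comparison 0 members passed in either direction under every alternative run without the block. With the replicate block by description number 0 passed as well, except for Cox6a2. It passed as 1 higher member when CD34-negative 3, CD34-negative 4 or CD34-positive 3 was left out. The count of higher members thus ran from 0 to 1 over the libraries left out. With the block, leaving out CD34-negative 3 or CD34-positive 3 gives the same CD34 contrast. The median over members, 0.17 as deposited, was 0.016 after quantile normalization, -0.11 with the mean of CD34-negative 4 and 4a as 1 sample, -0.10 with the replicate block and with number 4 as a covariate, 0.31 without both number 3 libraries, -0.13 in numbers 2 and 3 alone and -0.055 in number 4 alone. It ran from -0.30 (without CD34-positive 2) to 0.69 (without CD34-positive 4) over the libraries left out, and from -0.13 to -0.059 with the block. In the comparison by library number the count of lower members, 72, was 36 after quantile normalization and 41 after rescaling without ribosomal protein genes, and ran from 46 (without CD34-positive 4) to 73. The count of higher members, 0, was 1 after median-ratio scaling (Atp5s, 0.71) and 3 after quantile normalization. The median of -1.63 became -1.23 after median-ratio scaling, -0.49 after quantile normalization and -1.09 without ribosomal protein genes, where the median of all genes moved from -0.29 to 0.07, 0.02 and 0.23. After quantile normalization Ndufa4 (0.54), Ndufb9 (0.24), Uqcrq (0.013), Uqcrh (0.26), Cox4i1 (0.19), Cox6b1 (0.79), Atp5b (1.08), Cox8a (1.04) and Atpif1 (0.028) lay above 0. The cause of these changes was not tested. Other pseudocounts and filters kept every median within 1 SD of its spread. FPKM without fragment counts set no limit for low members such as Cox6a2.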
